A study of Trifolium repens with 6 samples.

Results

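The steady abundant petal transcripts of a red-flowered white clover mutant were 104 of the 152107 unigenes listed over 6 petal libraries. They were chosen by their deposited FPKM (a level scaled for unigene length and library size, from the authors' RSEM run): a length of at least 500 bases, at least 100 FPKM in each library, and a highest FPKM under 1.5 times the lowest over the 6 libraries. All petals came from the same red-flowered mutant of Trifolium repens. The shaded group (3 libraries) was grown under a shading net placed over the plants from before flowering and had white petals, and the field group (3 libraries) was left in the open field and had red petals. The net covered the top of the plants, so light at the flowers cannot be told apart from other effects of the net. The labels give no number of plants behind a library, so the spread between libraries may be partly technical.

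White clover is a legume with an allotetraploid genome, in which many genes exist as a pair of closely similar copies. Petal colour in red-flowered plants usually comes from anthocyanins, whose synthesis in many species depends on light. In a plant tissue the transcripts with high and even levels often encode parts of the machinery that every cell needs, such as ribosomal proteins, translation factors, tubulin, actin or ubiquitin, and transcripts of this kind are used as references in RT-qPCR. The deposited files do not pair the unigene IDs with gene names or functions, so the steady unigenes are described by level, length, spread and assembly cluster, and none of these roles is given to any of them. An ID with a CL number is taken as a contig of an assembly cluster of similar contigs, and the other IDs as single unigenes.

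A length of at least 500 bases and at least 100 FPKM in each of the 6 libraries was reached by 398 unigenes, and the 104 steady ones made up 26.1% of these abundant unigenes. The other 294 abundant unigenes had a ratio of highest to lowest FPKM of 1.50 to 49.9, with a median of 2.36. A ratio of at least 2 was seen in 197 of the abundant unigenes, of at least 3 in 91 and of at least 10 in 8. Among the steady unigenes the ratio ranged from 1.10 to 1.50 with a median of 1.31, and it was under 1.2 for 16, under 1.3 for 51 and under 1.4 for 79. There was no gap at the limit. Unigene1895_All, just inside, had a ratio of 1.4998 and CL18031.Contig2_All, just outside, had a ratio of 1.505. The length floor removed no steady unigene: 14 shorter unigenes reached 100 FPKM in all libraries, and their ratios were 1.70 to 9.66.

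**Figure D1:**
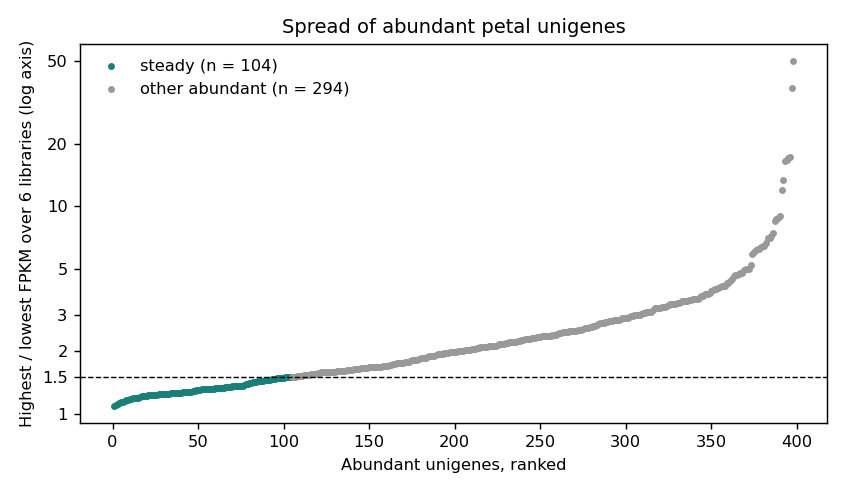
Ratio of the highest to the lowest FPKM over the 6 libraries (log axis) for the 398 abundant unigenes in ranked order, with the limit of 1.5 as a dashed line. The 104 steady unigenes lie under the line and the other 294 run on without a break to a ratio of 49.9.

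The libraries held 14221859 to 20414104 expected counts, and RSEM's expected count is an estimated number of reads per unigene. The lowest count of a steady unigene in any library was 666, which gives a counting error of 3.87%, and the median over the 104 of the counting error at the lowest count was 1.91%. These values cover counting error only. The coefficient of variation (SD over mean) of FPKM over the 6 libraries had a median of 10.3% and a range of 3.21% to 18.0%, and it was above the counting error of the lowest count for all 104 steady unigenes. Within the shaded libraries its median was 7.14% and within the field libraries 8.59%, and 57 steady unigenes varied more among the field libraries and 47 more among the shaded libraries. The libraries also differed in fragment length, read here as the median of unigene length less effective length. It was 163.1, 204.6 and 210.9 bases for shaded replicates 1 to 3, and 166.1, 168.4 and 227.9 bases for field replicates 1 to 3. Shaded replicate 1 and field replicates 1 and 2 are called the short-fragment class here, and the remaining 3 the long-fragment class, with no label saying that they mark a batch.

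Most steady unigenes sat in the lower part of the abundant range. Their mean FPKM over the 6 libraries ranged from 109.0 to 1570, with a median of 184.3, against 131.0 to 18648 with a median of 269.1 for the other abundant unigenes. A mean under 200 FPKM was found for 61 of them, 200 to 500 for 38, and over 500 for 5. The share of abundant unigenes that were steady was 43.9% at a mean under 200 FPKM, 20.5% from 200 to 400, 12.7% from 400 to 800 and 5.26% above that. A unigene with a mean near the floor can reach 100 FPKM in every library only if it varies little, so this order follows partly from the rule. Together the 104 took 3.14%, 3.20% and 3.11% of all expected counts in the shaded libraries, and 3.11%, 3.19% and 2.97% in the field libraries. The mean was 3.15% ± 0.05 in shade and 3.09% ± 0.11 in the field (SD, n = 3), and the values of the conditions overlapped. In petals sequenced whole, fewer cells of a type and less RNA per cell cannot be told apart.

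The most abundant steady unigene was CL19166.Contig3_All (2384 bases), with 1443, 1761 and 1673 FPKM in shaded replicates 1 to 3 and 1521, 1570 and 1453 FPKM in field replicates 1 to 3. The conditions overlapped, and the means were 1626 ± 164 FPKM in shade and 1515 ± 58.8 FPKM in the field (SD, n = 3). It was also among the most deeply sampled, with 47987 to 65880 expected counts per library. CL9343.Contig2_All (647 bases) came next with 1018, 1143 and 919.5 FPKM in shade and 1099, 982.2 and 786.4 FPKM in the field. Its lowest value was in field replicate 3, the library with the longest fragments. CL19050.Contig6_All (948 bases) had 803.8, 816.4 and 757.3 FPKM in shade and 884.5, 794.3 and 665.6 FPKM in the field, and its highest and lowest values were both in field libraries. CL19166.Contig13_All (1724 bases), from the same assembly cluster as the most abundant one, had 549.3, 659.8 and 684.3 FPKM in shade and 492.5, 481.3 and 597.1 FPKM in the field. The 2 highest values were in shade and the 2 lowest in the field, with overlap in between. Unigene4119_All (1193 bases) had 490.3, 512.3 and 596.4 FPKM in shade and 542.6, 556.4 and 590.3 FPKM in the field, so the shaded libraries held both its lowest and its highest value.

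The steadiest was Unigene21099_All (907 bases), with 158.5, 155.9 and 168.1 FPKM in shade and 159.2, 162.2 and 153.5 FPKM in the field. Its highest value was 1.10 times its lowest, and its coefficient of variation over the 6 libraries was 3.21%, beside a counting error of 2.44% at its lowest count of 1677. Unigene8782_All (1531 bases) had 135.3, 137.2 and 131.7 FPKM in shade and 125.0, 123.9 and 133.4 FPKM in the field, a ratio of 1.11. The shaded values lay at the upper end, with field replicate 3 among them. Unigene10095_All (1908 bases) stood out among the steadiest for its level, with 413.8, 392.9 and 418.8 FPKM in shade and 373.8, 404.2 and 413.3 FPKM in the field, a ratio of 1.12. CL16300.Contig2_All (2878 bases) had 142.3, 152.6 and 142.9 FPKM in shade and 138.9, 152.1 and 156.5 FPKM in the field, a ratio of 1.13. CL6038.Contig1_All (2063 bases) had 178.4, 176.9 and 178.0 FPKM in shade and 161.8, 182.7 and 160.3 FPKM in the field, a ratio of 1.14. The coefficient of variation of this contig was 0.44% over the 3 shaded values and 7.43% over the 3 field values. These ratios chose the unigenes and are given without a test.

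**Figure D2:**
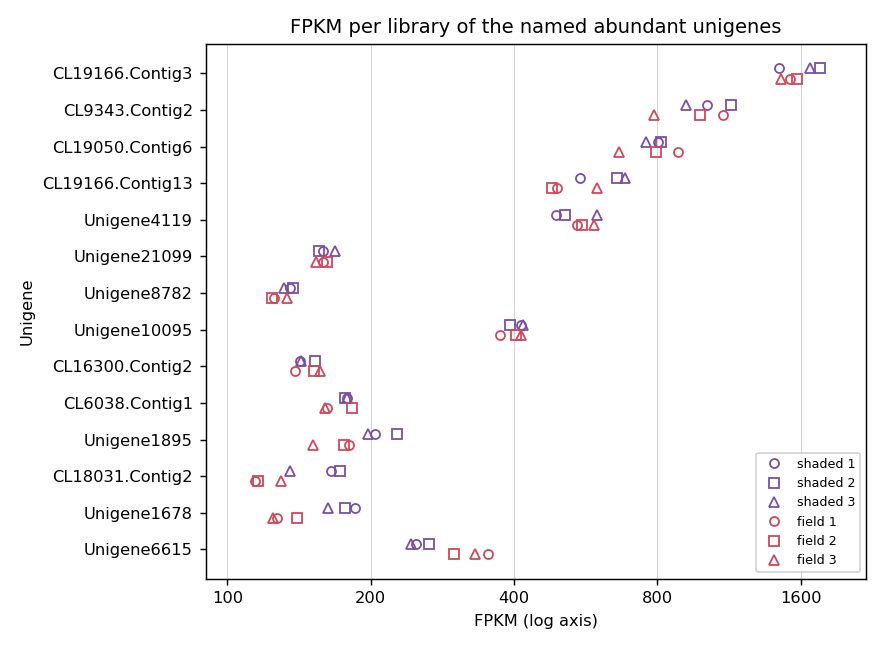
FPKM (log axis) of the 14 named abundant unigenes in each library, with shaded libraries above field libraries and 1 symbol per replicate. The uppermost 5 are the most abundant steady unigenes and the following 5 the steadiest, whose symbols lie within 1.14 times of each other. CL18031.Contig2 is the unigene just outside the limit.

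Being steady within a factor of 1.5 still left room for small differences between the conditions. The ratio of shaded to field mean FPKM ranged from 0.769 to 1.34 with a median of 1.03, and it was within 10% of 1 for 58 of the 104. In 18 steady unigenes all 3 shaded values were above all 3 field values and in 8 all were below, which is 17.3% and 7.69% of the 104. Over all 398 abundant unigenes the same patterns were found in 24.1% and 19.1%, and over the 46778 unigenes tested in 20.3% and 16.9%. The rule used this contrast, so nothing is read from the difference in these shares. The edgeR quasi-likelihood test called 0 of the 104 at a Benjamini-Hochberg adjusted p under 0.05, where it called 10.3% of the 46778 unigenes tested, and 0 had an unadjusted p under 0.05, where 27.3% of the tested unigenes did. All 104 passed the filter on low counts. The smallest adjusted p among them was 0.259 in edgeR. The DESeq2 Wald test also called 0 (adjusted p), with 3 at an unadjusted p under 0.05, beside backgrounds of 19.7% and 30.2%. Limma on log2(FPKM + 1) called 0, with 0 at an unadjusted p under 0.05, beside 14.2% and 29%, and on log2(FPKM + 0.1) it called 0, with 1 at an unadjusted p under 0.05, beside 11.6% and 28.1%. A choice of unigenes with a small spread over the same libraries leaves no large fold change to call, so these counts describe the selection.

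The unigene with the largest shaded to field ratio was Unigene1678_All (1417 bases). It had 185.8, 176.5 and 163.1 FPKM in shade and 127.3, 139.8 and 124.9 FPKM in the field, without overlap. The means were 175.1 ± 11.4 FPKM in shade and 130.7 ± 8.04 FPKM in the field (SD, n = 3), a log2 difference of 0.42 ± 0.07 (SE; edgeR log2 fold change 0.36, adjusted p = 0.299). The log2 difference was 0.48 within the short-fragment class and 0.44 within the long-fragment class. Unigene6615_All (1849 bases) had the smallest ratio, with 249.0, 264.7 and 243.5 FPKM in shade and 353.3, 299.7 and 331.7 FPKM in the field, again without overlap. The means were 252.4 ± 11.0 FPKM in shade and 328.2 ± 26.9 FPKM in the field, a log2 difference of -0.38 ± 0.08 (SE; edgeR log2 fold change -0.45, adjusted p = 0.259), and it was -0.39 within each fragment class. Both differences are larger than the spread between libraries of a condition, but neither passed the test. These unigenes were picked as the extremes of the steady ones from the same FPKM values. The standard errors and the values within the fragment classes come from those libraries too. No difference between the conditions is therefore read from the comparison with the spread. The fragment classes did not give similar values for all named unigenes. For CL19166.Contig3_All the log2 difference was -0.10 within the short-fragment class and 0.24 within the long-fragment class. For CL19166.Contig13_All it was 0.17 within each.

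Some of the 26 unigenes without overlap shared a cluster. Both steady contigs of cluster CL10682 were higher in every shaded library. CL10682.Contig1_All had 332.9, 325.8 and 312.9 FPKM in shade and 234.5, 259.9 and 263.9 FPKM in the field, and CL10682.Contig2_All had 182.5, 184.7 and 169.2 FPKM in shade and 153.9, 159.4 and 130.4 FPKM in the field. Similar contigs can share reads, so these are not separate observations. The tightest of the 18 was Unigene8807_All (1235 bases), with 187.0, 193.8 and 190.5 FPKM in shade and 161.3, 156.9 and 163.2 FPKM in the field, a log2 difference of 0.25 ± 0.02 (SE; edgeR adjusted p = 0.593). Among the 8, CL11687.Contig1_All (2804 bases) had 305.3, 328.7 and 329.8 FPKM in shade and 355.1, 394.2 and 412.1 FPKM in the field. These 4 unigenes were picked from the 26 after their values were seen.

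**Figure D3:**
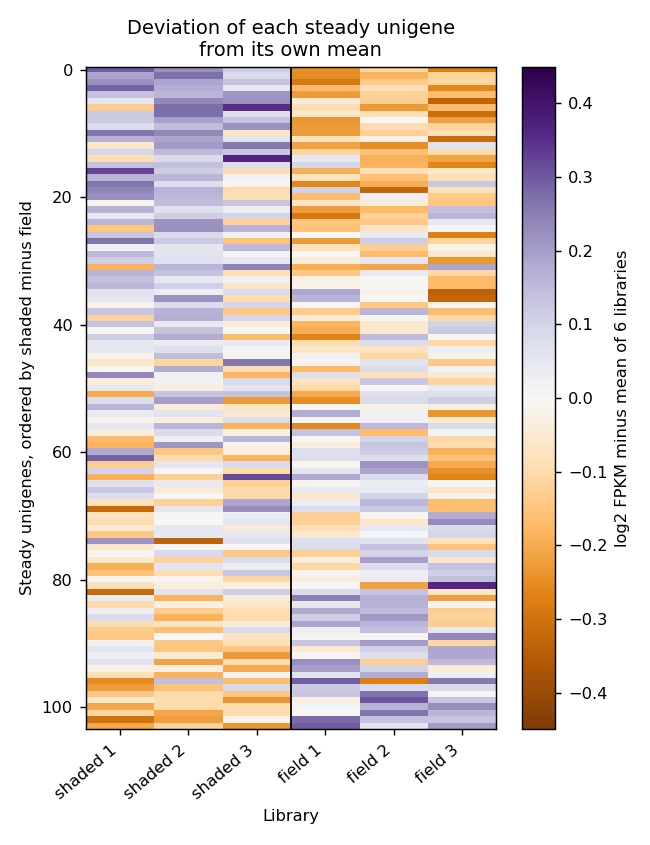
Log2 FPKM of each of the 104 steady unigenes in each library, minus that unigene's mean over the 6 libraries, with the unigenes ordered by the shaded minus field difference. Purple marks values above and orange values below the unigene's own mean. The uppermost and lowest rows follow the condition because of this order.

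The spread was shared among the libraries without being even. The highest value of a steady unigene was in a shaded library for 63 and in a field library for 41, and the lowest value was in a shaded library for 36 and in a field library for 68. Field replicate 3 held the lowest value for 28 steady unigenes and field replicate 1 for 26, against 10 for shaded replicate 2. The median of a steady unigene's FPKM over its own 6-library mean (geometric) was 1.02, 1.04 and 1.002 in shaded replicates 1 to 3 and 0.978, 1.02 and 0.958 in field replicates 1 to 3. The FPKM of a whole library summed to 954732 in field replicate 3 and to 789160 to 841812 in the other 5, so the FPKM scale itself is not the same in each library. The median log2 difference over the 104, shaded minus field, was 0.04 on the deposited FPKM, 0.03 within the short-fragment class and 0.07 within the long-fragment class. Its sign depended on the scaling: it was 0.075 with FPKM rescaled to the same sum in each library (TPM) and -0.029 with TMM-scaled CPM, each within 0.1 of zero. The median edgeR log2 fold change was -0.03 for the 104 and -0.02 for all 46778 unigenes tested.

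The choice of steady unigenes itself moved with the scaling. With the ratio taken on TPM, 72 unigenes met the rule, 69 of them among the 104, and the other 35 of the 104 had a TPM ratio of at least 1.5. FPKM was also computed from counts with TMM library sizes and the full unigene length, for both the floor and the ratio. On this scale 79 unigenes met the rule, of which 73 were among the 104. Of the 104, 9 had a ratio of at least 1.5 on it, so most of those lost fell under the floor of 100 FPKM. The full length exceeds the effective length behind the deposited FPKM, which lowers the values against that floor. With CPM of the expected counts in the ratio, without a length correction, 96 met it, 93 of them among the 104. Unigene21099_All had ratios of 1.28 on TPM and 1.16 on TMM-scaled FPKM, and Unigene8782_All had 1.23 and 1.09. The largest ratios of any of the 104 were 1.80 on TPM and 1.62 on TMM-scaled FPKM.

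The rule was also applied to 5 libraries, and the FPKM of the sixth was then read. The unigenes that the sixth library keeps within the rule are the same 104 each time, so the share kept is 104 over the number steady in 5, and what differs is how many more unigenes the other 5 libraries would have let in. With shaded replicates 1, 2 and 3 left out in turn, 116, 112 and 120 unigenes were steady in the other 5, and the left-out library kept 89.7%, 92.9% and 86.7% of them within the rule. With field replicates 1, 2 and 3 left out, 150, 132 and 126 unigenes were steady in the other 5, and 69.3%, 78.8% and 82.5% were kept. The 3 shares for field libraries were all below the 3 for shaded libraries. A left-out field library is read against a choice made from 3 shaded and 2 field libraries, and a left-out shaded library against the reverse. Over all 6 choices 82.5% were kept, and 84.0% without the FPKM floor on the sixth library.

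The same reading was made for abundant unigenes that were not steady in the 5 libraries, with a window that does not depend on their own spread. A sixth value within 1.5 times of the geometric mean of the other 5 was found for 99.1%, 100% and 96.7% of the unigenes steady in 5 when shaded replicates 1, 2 and 3 were left out, against 49.4%, 73.2% and 77.9% of the other abundant unigenes. With field replicates 1, 2 and 3 left out the shares were 88.7%, 86.4% and 93.7% of the steady unigenes, against 49.3%, 54.4% and 68.9% of the others. The steady share was the higher one for each of the 6 left-out libraries. The 104 steady unigenes are part of each choice, and a ratio under 1.5 over all 6 libraries places them within the window. The other unigenes were set apart by a ratio of at least 1.5 in the 5 libraries. The order of these shares therefore follows in part from how the groups were made, and nothing further is read from it. The typical sixth value of a unigene steady in 5 was off by a factor of 1.09 to 1.16 (range over left-out libraries of the median), against 1.24 to 1.52 for the others. The unigenes of the 6 choices overlap, so the 6 readings are not independent.

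**Figure D4:**
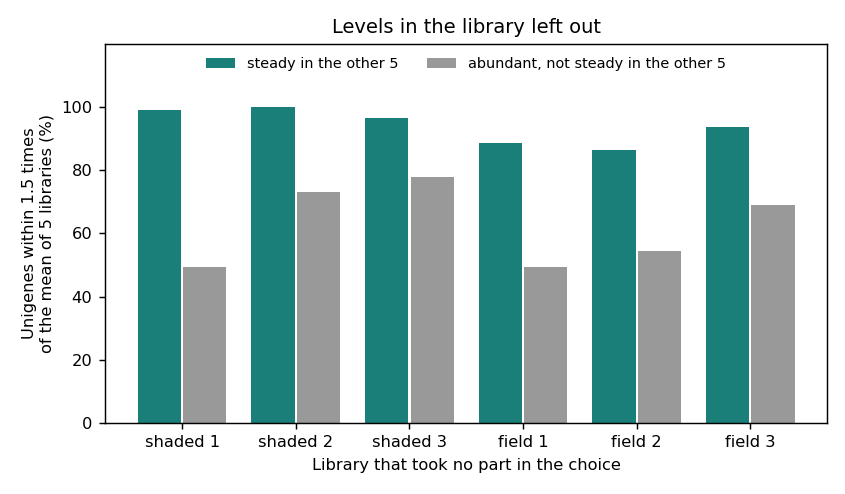
Percent of unigenes whose FPKM in the library left out was within 1.5 times of the geometric mean of the other 5 libraries, for unigenes steady in those 5 (left bar of each pair) and for other abundant unigenes (right bar). The steady share was 86.4% to 100% and the other share 49.3% to 77.9%, an order that follows in part from how the groups were made.

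In the 6 choices together, 48 unigenes were steady in 5 libraries and lay outside 1.5 times of their mean in the sixth. Of these 48, 34 were low in a field library. The sixth value was at least 1.5 times under the mean of the other 5 for 13 unigenes in field replicate 1, 17 in field replicate 2 and 4 in field replicate 3, against 0, 0 and 3 in shaded replicates 1, 2 and 3. It was at least 1.5 times above for 4, 1 and 4 unigenes in field replicates 1, 2 and 3 and for 1, 0 and 1 in shaded replicates 1, 2 and 3. The lowest was CL18818.Contig1_All (1741 bases), with 72.7 FPKM in field replicate 2, against 227.1 to 292.4 FPKM in the other 5 libraries. CL18818.Contig2_All (1347 bases), from the same cluster, had 125.0 FPKM there, against 380.0 to 445.6 FPKM in the others. A unigene high in a single library was CL6343.Contig4_All (1622 bases), with 305.1 FPKM in field replicate 3, against 126.9 to 177.8 FPKM in the others. These 3 were named after their values were seen and are no members of the 104.

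The steady unigenes had a lower median length than the other abundant unigenes and were more often single, without a test of either. Their lengths ran from 591 to 2924 bases with a median of 1203 bases, against 508 to 9583 bases with a median of 1385 bases for the other abundant unigenes, and 1371 bases for all unigenes tested. The steady share of the abundant unigenes was 28.9% from 500 to 1000 bases, 29.1% from 1000 to 1500, 24.1% from 1500 to 2000 and 19.5% above 2000 bases. Single unigenes made up 62 of the 104 and cluster contigs 42. Of the 184 abundant single unigenes 33.7% were steady, and of the 214 abundant cluster contigs 19.6%. RSEM divides reads among similar contigs, and what part this has in the lower share of contigs was not tested.

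The 42 steady contigs lay in 33 clusters, all with at least 1 other contig, and 7 of the clusters held 2 or more steady contigs. In some of these 7 the split of the reads between contigs varied by a few percentage points over the libraries and overlapped between the conditions. In CL12693, a cluster of 2 contigs that were both steady, CL12693.Contig1_All took 44.7%, 43.3% and 45.4% of the cluster's expected counts in shade and 46.0%, 42.1% and 42.5% in the field. CL2629.Contig2_All took 61.0%, 62.5% and 58.6% of its cluster in shade and 58.4%, 59.8% and 61.1% in the field, with CL2629.Contig1_All, also steady, taking the rest. CL19166 was the largest cluster, with 4 steady contigs of 17. These 4 together took 75.8%, 80.1% and 76.6% of its counts in shade and 82.5%, 86.4% and 84.1% in the field, without overlap. The means of 3 libraries were 77.5% and 84.3%. In CL9205 the 2 steady contigs of 5 together took 75.2%, 73.2% and 73.1% in shade and 81.0%, 80.5% and 81.6% in the field, also without overlap. Over the 42 steady contigs, 10 took 40% to 60% of their cluster in every library and 7 took over 90% in every library.

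For 13 of the 42 the share of the cluster did not overlap between the conditions, with 5 (11.9%) higher and 8 (19.0%) lower in shade. Over the 31933 tested contigs of clusters with at least 2 contigs the same patterns were found in 12.5% and 12.1%, so nothing particular to the steady contigs is read from the count. CL1620.Contig1_All, a steady contig of 1356 bases, took 72.0%, 75.0% and 74.3% of its cluster of 2 contigs in shade and 55.0%, 57.4% and 66.3% in the field. Its own FPKM was 124.0, 118.9 and 136.5 in shade and 126.2, 148.4 and 123.6 in the field, so the groups overlapped. The other contig of the cluster had 47.2, 38.7 and 46.2 FPKM in shade and 100.8, 107.7 and 61.3 FPKM in the field, without overlap, and missed the threshold (edgeR log2 fold change -1.10, adjusted p = 0.051). CL3150.Contig2_All (2197 bases) took 49.8%, 49.1% and 49.5% of its cluster in shade and 64.5%, 62.6% and 59.7% in the field. It had 271.8, 287.9 and 330.6 FPKM in shade and 406.0, 368.7 and 366.7 FPKM in the field, and the other contig, CL3150.Contig1_All (2696 bases), had 219.9, 238.2 and 269.1 FPKM in shade and 179.4, 177.0 and 197.6 FPKM in the field. Each was without overlap, in opposite directions, and the ratio of the second was 1.52, just over the limit. The summed FPKM of the cluster had a ratio of 1.22, and its summed counts an edgeR log2 fold change of -0.09 (adjusted p = 0.843).

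The contigs that shared a cluster with a steady contig and were not steady themselves numbered 78, of which 63 had enough counts for the edgeR test. The test called 4 of them at an adjusted p under 0.05, 2 higher and 2 lower in shade, which is 6.35% of the 63, beside 9.4% of all 31933 tested contigs of clusters with at least 2 contigs (4.52% higher and 4.88% lower). At an unadjusted p under 0.05 there were 14, beside 26.2% of those contigs. The median edgeR log2 fold change of the 63 was 0.26, with 43 above and 20 below 0, beside a median of -0.02 over all unigenes tested. No share above 0 over all tested contigs stands beside the 43. Contigs of a cluster can share reads, and CL19166 alone gave 10 of the 63 and CL1807 gave 8. No tendency of the partners is therefore read from this split. The 4 calls were in 4 different clusters, and 0 clusters had partners called in both directions. CL753.Contig3_All (978 bases) rose to 123.3, 123.4 and 123.5 FPKM in shade, against 61.3, 53.2 and 53.6 FPKM in the field (edgeR log2 fold change 1.07, adjusted p = 0.021). Its steady neighbour CL753.Contig2_All (2198 bases) had 240.2, 232.7 and 231.0 FPKM in shade and 216.3, 230.8 and 189.2 FPKM in the field. Its shaded values were thus also above its field values, by a small margin (231.0 against 230.8 FPKM). CL19166.Contig2_All (1495 bases) rose to 570.3, 538.8 and 663.9 FPKM in shade, against 239.6, 160.7 and 248.1 FPKM in the field (edgeR log2 fold change 1.38, adjusted p = 0.029), in the cluster of the most abundant steady contig.

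CL12031.Contig3_All (1154 bases) fell to 47.5, 51.0 and 58.9 FPKM in shade, against 117.3, 131.4 and 119.2 FPKM in the field (edgeR log2 fold change -1.29, adjusted p = 0.014). The steady contig of its cluster, CL12031.Contig2_All (924 bases), had 178.6, 183.8 and 178.0 FPKM in shade and 215.1, 237.2 and 195.6 FPKM in the field, also without overlap. CL13443.Contig2_All (579 bases) fell to 0, 0.16 and 0 FPKM in shade, against 4.77, 4.21 and 8.69 FPKM in the field (edgeR adjusted p = 0.014). It had 1 expected count in the shaded libraries together and 111 in the field libraries, a field to shaded ratio of 124 after scaling for library size, with a 95% counting interval (Clopper-Pearson) of 21.8 to 4930. Its steady neighbour CL13443.Contig1_All (1000 bases) took 98.4% to 100% of the cluster in every library, with 219.2, 240.5 and 218.9 FPKM in shade and 191.4, 211.3 and 238.4 FPKM in the field. The calls were lost in some fits with 5 libraries, which have fewer residual degrees of freedom. Without shaded replicate 1 or without shaded replicate 2, 0 of the partner contigs were called (12 and 10 at an unadjusted p under 0.05), and 2 were called without field replicate 2. Over all unigenes edgeR called 1153 of 51627 tested without shaded replicate 1 and 690 of 52420 without shaded replicate 2 (11418 and 10676 at an unadjusted p under 0.05). Without field replicate 2 it called 1955 of 51335. With 1 library left out the edgeR log2 fold change was 1.01 to 1.14 for CL753.Contig3_All, 1.19 to 1.49 for CL19166.Contig2_All and -1.37 to -1.22 for CL12031.Contig3_All. For CL13443.Contig2_All, with 1 shaded count, the fitted value depended more on which library was left out, at -8.31 to -5.98. Over all alternatives the largest adjusted p in edgeR, DESeq2 or limma was 0.095 for CL753.Contig3_All, 0.102 for CL19166.Contig2_All, 0.088 for CL12031.Contig3_All and 0.078 for CL13443.Contig2_All, with the same direction throughout.

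**Figure D5:**
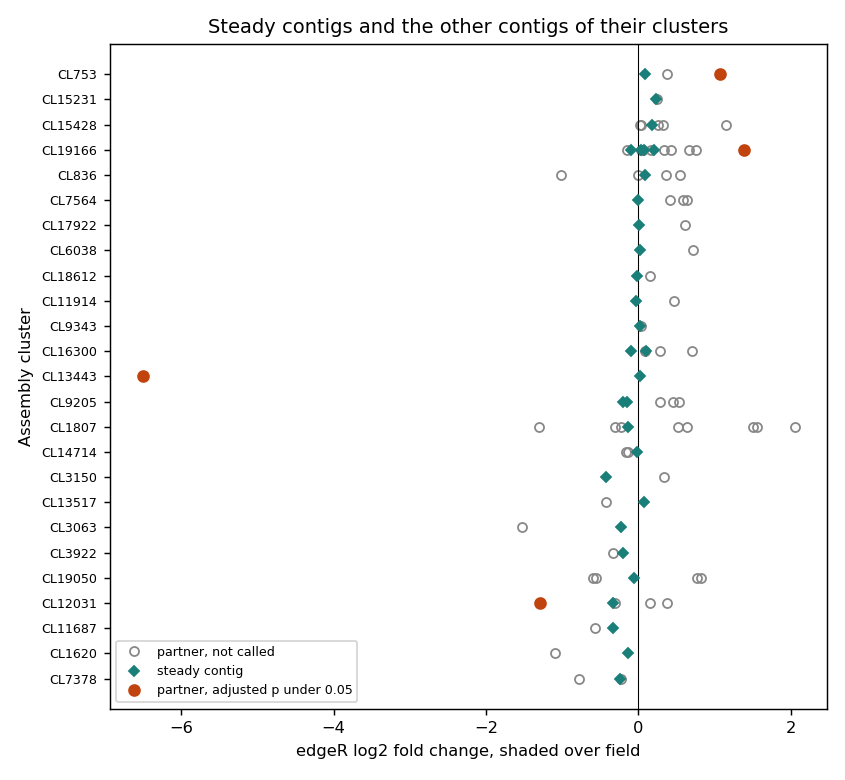
EdgeR log2 fold change, shaded over field, of steady contigs (diamonds) and of the other tested contigs of the same cluster (circles, filled where the adjusted p was under 0.05) in the 25 clusters with a tested partner. The diamonds lie close to 0 by selection, and the 4 called partners lie at 1.07, 1.38, -1.29 and -6.51.

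Summed over all contigs of a cluster, the level was close to even in most clusters, which follows in part from the rule. The CPM of the whole cluster had a highest to lowest ratio under 1.5 in 30 of the 33 clusters that hold a steady contig, and the summed FPKM in 28. No share over other clusters stands beside these counts, so they describe the selection. The edgeR test on summed counts called 0 of the 33 at an adjusted p under 0.05, with 0 at an unadjusted p under 0.05, beside 17% and 34.2% of 14813 tested clusters with at least 2 contigs. The smallest adjusted p among the 33 was 0.171 in edgeR. DESeq2 on the same sums called 0 (adjusted p), with 3 at an unadjusted p under 0.05. No background share is given for that fit, so nothing is read from its counts. The clusters over the limit in summed counts were CL1620, CL7378 and CL9343, with ratios of 1.68, 1.67 and 1.68. The rule bears on these sums through the steady contigs in them, which took 27.2% to 100% of their cluster in shade and 27.9% to 100% in the field (means of 3 libraries).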

How the data were processed

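Petal RNA was sequenced in 3 libraries of shaded plants and 3 of field plants. Groups came from the source labels and replicate numbers from the titles. RSEM 1.2.12 and DESeq are named in the submitters' processing notes; the assembly, aligner and read filtering are not described there or in the labels. Per the file headers, the authors deposited an expected count and an FPKM per unigene and library. A unigene missing from a table was given 0. The steady unigenes and the lists of partners were chosen with earlier results of these data known.

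Expected counts were rounded, filtered with filterByExpr (count minimum 10) and tested with edgeR 4.0.16 in R 4.3.3 (TMM, robust quasi-likelihood, two-sided), all 6 libraries, Benjamini-Hochberg over the 46778 unigenes left. Cluster sums were tested alike. Alternatives used DESeq2 1.42.0 and limma 3.58.1. This edgeR fit was first tested on simulated data with known, large changes. The simulated counts had the same variability for all unigenes and no fragment length differences between libraries. That test therefore checks the code and not how the fit performs on these libraries. Log2 differences and standard errors of steady unigenes come from log2 FPKM, without a pseudocount. Libraries with a length minus effective length (unigenes over 200 expected counts) above 180 bases form the long-fragment class. Named unigenes were the 5 most abundant and the 5 steadiest, those next to the limit, those with extreme shaded to field ratios and called partners; others are marked as chosen after their values were seen, or were taken as cluster neighbours. The window of 1.5 times around the mean, the cluster shares with their background and the fragment class were added after the data were seen.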

Additional observations from a re-analysis of the deposited data

How the results depend on the processing

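The 104 steady unigenes became 31 at the stricter limit, 201 at 2 times, 287 at a floor of 50 FPKM and 35 at 200 FPKM, and without one library 112 to 150 met the rule, as fewer libraries had to. No setting called any of the 104 (0 in all 13 alternatives, with 0 to 3 at an unadjusted p under 0.05 in edgeR, DESeq2 or limma). Over all unigenes the 13 alternatives called 371 to 10417 of 46778 to 152055 tested, with 10535 to 24791 at an unadjusted p under 0.05. The rule chose the 104 by their small spread over these libraries, so their counts describe the selection. None of the 33 member clusters was called in the 9 alternatives run on cluster sums, for which no background share is given. Over all unigenes edgeR called 4795 (2210 higher, 2585 lower). The count was 9238 with the DESeq2 Wald test (4243 and 4995), 8218 with limma on log2(FPKM + 1) (3903 and 4315), 10417 with no filter on low counts (4349 and 6068), 2315 with the fragment class as a covariate (1099 and 1216), 371 with the replicate number as a block (147 and 224), and 690 to 4096 without one library. Of the partner contigs, 4 of 63 tested were called, beside 4795 of 46778 unigenes. The DESeq2 Wald test called 9 of 63, beside 9238 of 46778. With no filter edgeR called 10 of 78, beside 10417 of 152055. The partners' share was thus below that of all unigenes in the DESeq2 fit and above it with no filter. With the replicate block edgeR called 0 of 63, beside 371 of 46778 (12 and 10535 at an unadjusted p under 0.05). Without one library it called 0 to 5 of 63 to 67. No tendency of the partners is read from these counts. Deviations of same-numbered libraries correlated at -0.01, 0.01 and -0.09, and the labels do not pair them. The median log2 difference of the 104 was 0.075 on TPM and -0.029 on TMM-scaled CPM, against 0.04 on FPKM, and 0.03 to 0.06 without one library. What causes these shifts was not tested. A fit without one library or with a block has fewer residual degrees of freedom.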
